A study of Mus musculus with 6 samples.

Results

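S100 proteins are small calcium-binding proteins, and 6 genes of the family were followed through mouse spleen: S100a4, S100a6, S100a8, S100a9, S100a10 and S100a11. The members were taken by gene symbol, 6 of the 31053 genes counted, and each symbol had a single entry. Another 11 S100 symbols were in the same count matrix. Cells were measured by CITE-seq, which counts RNA and DNA-tagged surface antibodies (34 here) in the same cells.

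The 3 groups were C57BL/6 mice of 3 months given saline, C57BL/6 mice of 20 months given saline, and C57BL/6 mice of 20 months given recombinant mouse PF4 (platelet factor 4, a platelet chemokine) at 5 µg/mL. All groups, the saline groups included, received 8 tail vein injections of 100 µL over 24 days. Each group gave 1 RNA and 1 antibody sample of splenocytes pooled from 5 mice, so no group had a replicate and differences between mice could not be seen. The barcode suffixes 1, 2 and 3 separate the libraries, and no label, header or methods text that was read assigns them to groups. Libraries are therefore named by suffix, age and PF4 were not compared, and no test was run. Intervals are exact 95% intervals of the counts and cover counting error only.

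S100 proteins form dimers that change shape on binding calcium and then bind partner proteins. S100A8 and S100A9 pair to form calprotectin, a major cytosolic protein of neutrophils that is released in inflammation and signals through receptors such as TLR4. S100A4 and S100A6 bind cytoskeletal proteins and annexins, and S100A10 binds annexin A2 and the scaffold protein AHNAK. S100A11 binds annexins and takes part in membrane repair. In lymphocytes, S100a4 and S100a6 are known as genes of memory and effector cells.

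All 6 genes lie on chromosome 3, S100a4 to S100a9 within 88.9 kb and the other 2 starting 2917 and 2951 kb from the start of S100a4. By the GRCm38 annotation, S100a4 (90603771-90606045, plus strand), S100a6 (90612882-90624181, plus), S100a8 (90668978-90670035, plus) and S100a9 (90692632-90695721, minus) come first, and S100a11 (93520488-93526287, plus) and S100a10 (93555080-93564643, plus) follow. S100a4 is overlapped on its own strand by the gene model Gm42674, which held 0 UMIs (molecule tags, so that 1 UMI stands for 1 RNA caught) in kept cells against 15897 for S100a4. S100a11 has a pseudogene copy, S100a11-ps, so reads shared with it are uncertain.

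The 100 bases before the transcript start are shown because the genes are neighbours with different cell types. They are from RefSeq on GRCm38.p6, each read 5′ to 3′ on the strand of its gene, and capitals mark motif matches on either strand. The TATA box was searched as TATAAA. The GC box was searched as GGGCGG. The AP-1 element was searched as TGANTCA, and the C/EBP element as TTGCNNAA.
S100a4, chr3:90603670-90603769, plus strand: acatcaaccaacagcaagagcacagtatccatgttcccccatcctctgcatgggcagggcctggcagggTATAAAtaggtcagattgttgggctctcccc
S100a6, chr3:90612794-90612893, plus strand: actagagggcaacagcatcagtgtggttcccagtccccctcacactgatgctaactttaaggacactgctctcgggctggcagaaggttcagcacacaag
S100a8, chr3:90668971-90669070, plus strand: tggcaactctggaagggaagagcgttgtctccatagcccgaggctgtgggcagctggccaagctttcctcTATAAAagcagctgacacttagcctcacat
S100a9, chr3:90695722-90695821, minus strand: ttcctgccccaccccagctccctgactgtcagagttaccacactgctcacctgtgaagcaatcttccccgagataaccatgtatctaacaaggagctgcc
S100a11, chr3:93520396-93520495, plus strand: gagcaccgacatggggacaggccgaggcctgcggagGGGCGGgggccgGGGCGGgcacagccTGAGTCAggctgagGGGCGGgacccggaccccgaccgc

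The RefSeq transcript starts used here are not always the annotated gene starts given above. The S100a8 window lies mostly inside its annotated gene, and those of S100a6 and S100a11 run past the annotated start. TATAAA stood 31 to 26 bases before the RefSeq start of S100a4 and 30 to 25 before that of S100a8. It was present in 5.56% of the 32851 mouse promoter windows of the same length. S100a11 held GGGCGG at 3 places, a motif of 24.7% of windows, and a TGANTCA match, a motif of 2.73%. TTGCNNAA, in 3.43% of windows, was in none of the 5. S100a6 and S100a9 held none of the 4 motifs. The windows of S100a4, S100a6, S100a8 and S100a9 each had 54% G and C, near the median of 55% over all windows, and that of S100a11 had 79%. S100a10 was not part of the sequence table and is named only.

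After the study's limits on cells (300 to 5000 genes and at most 10% mitochondrial UMIs), 4199, 7511 and 8451 cells were kept, with 20032690, 32270524 and 35697547 RNA UMIs and medians of 3625 to 3765 UMIs per cell. A total of 68 barcode sequences occurred under more than 1 suffix (136 barcodes). Library 1 stood apart in its makeup: it held 133 of 135 cells of the neutrophil-like cluster with granule genes and 379 of 394 of the first erythroid-like cluster. Clusters of RNA were rebuilt without any S100 gene and named from markers, so their names may differ from those of the study. Levels are CPM, the UMIs of a gene over all RNA UMIs of the cells, scaled to the same total. The 3′ kit counts each molecule once whatever its length.

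Over all kept cells, the libraries differed most in S100a8 and S100a9. S100a8 was at 10951, 553 and 651 CPM in libraries 1, 2 and 3, and S100a9 at 12494, 652 and 720 CPM. S100a10 was at 446, 467 and 365 CPM. Neutrophil-like cells held 98.0%, 97.1% and 94.8% of all S100a8 UMIs and 98.3%, 96.9% and 94.6% of all S100a9 UMIs. The same cells held 0.570%, 0.179% and 0.399% of S100a10 UMIs, of which B-like and T-like cells together held most. S100a4 was mainly in monocyte-like cells (45.3%, 44.3% and 44.3% of its UMIs), T-like cells (33.8%, 26.2% and 16.3%) and dendritic-like cells (12.8%, 19.4% and 24.4%). S100a6 and S100a11 were spread over neutrophil-like, T-like, B-like and monocyte-like cells, and neutrophil-like cells held 37.5%, 10.8% and 24.4% of S100a6 and 50.6%, 14.4% and 21.5% of S100a11. These shares follow the number of cells of each class in a library as well as the level per cell. The class with the highest level of each member was the same in every library for all 6 genes: neutrophil-like cells for S100a6, S100a8, S100a9 and S100a11, monocyte-like cells for S100a4, and basophil-like cells for S100a10, which rest on 17, 24 and 18 cells.

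**Figure D1:**
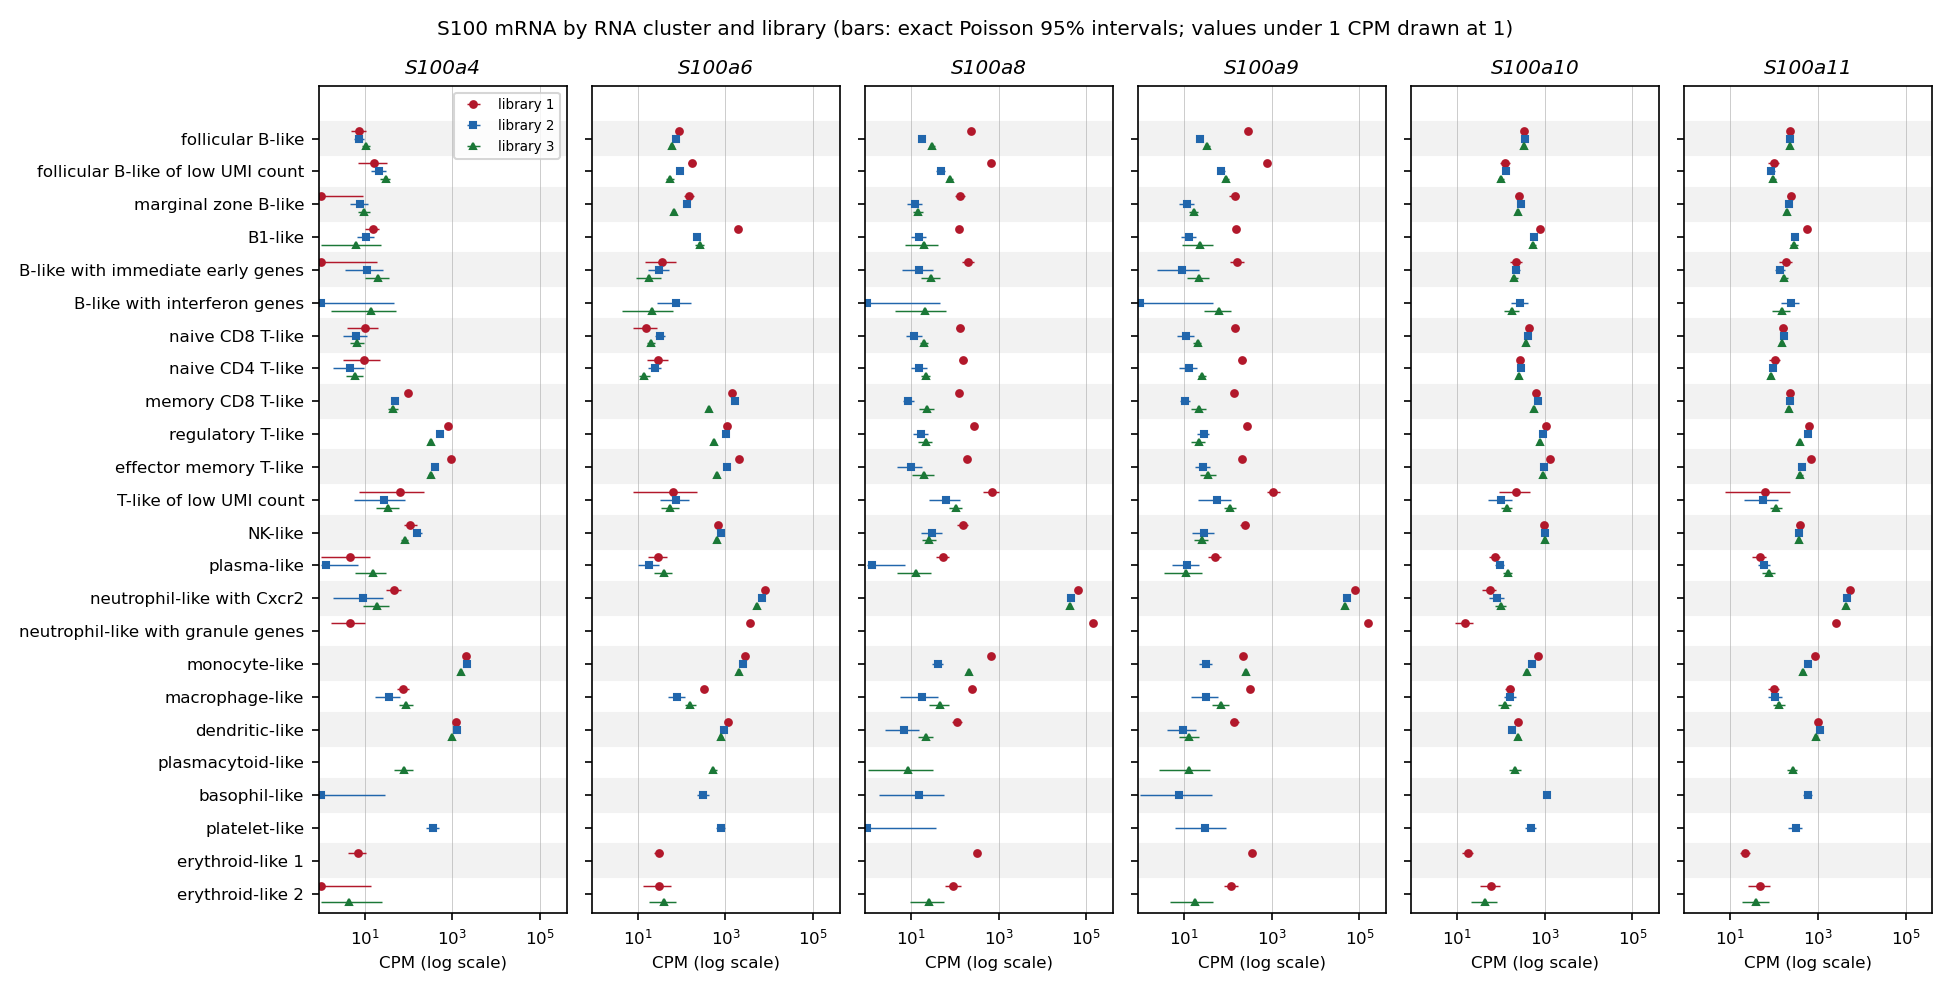
Levels of the 6 S100 genes (CPM, log scale) in each RNA cluster, with 1 point per library and bars for exact Poisson 95% intervals. Points of under 20 cells are left out. S100a8 and S100a9 stand at 42127 CPM or more in neutrophil-like cells of the Cxcr2 cluster and shift together between libraries in follicular B-like and naive T-like cells but not in monocyte-like cells, while S100a4 and S100a6 are higher in memory T-like, monocyte-like and dendritic-like cells than in naive T-like cells.

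In neutrophils, which carry calprotectin as their most abundant cytosolic protein, the cluster with Cxcr2 (the receptor of mature neutrophils that leads them from marrow to blood) had S100a8 at 65449, 44352 and 42127 CPM and S100a9 at 81299, 53442 and 46534 CPM in libraries 1, 2 and 3. S100a6 was at 7915, 6834 and 5138 CPM there and S100a11 at 5535, 4502 and 4322 CPM. All 4 were highest in library 1. S100a4 (46.9, 9.13 and 19.1 CPM) and S100a10 (55.6, 82.2 and 99.5 CPM) were low in the same cells. The cluster with granule genes (Ngp, Camp and Ltf, made by maturing neutrophils) could be read in library 1 alone, since libraries 2 and 3 gave 1 cell each. Against the Cxcr2 cluster of library 1, S100a8 was 2.15-fold (2.13 to 2.17) and S100a9 1.94-fold (1.92 to 1.96) higher, at 140673 and 157966 CPM. S100a6 stood at 0.467 times (0.448 to 0.486) and S100a11 at 0.462 times (0.440 to 0.485) its Cxcr2 level. Thus S100a6 and S100a11 had the opposite order to S100a8 and S100a9 over the 2 neutrophil-like clusters.

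Outside neutrophil-like cells, S100a8 and S100a9 were found in every class at a level that changed with the library. In follicular B-like cells S100a8 was at 238, 18.4 and 31.0 CPM and S100a9 at 283, 23.9 and 34.2 CPM. In naive CD8 T-like cells S100a8 was at 131, 12.1 and 20.0 CPM, and in memory CD8 T-like cells at 126, 8.85 and 23.7 CPM. Thus library 1 was highest in each of these, as it was in neutrophil-like cells. B-like cells as a class carried 0.196%, 0.0384% and 0.0770% of the neutrophil-like level of S100a8 and 0.1999%, 0.0404% and 0.0779% of that of S100a9. The same ratio for the other genes of a list of 23 neutrophil genes, over its members with at least 100 CPM in neutrophil-like cells (20, 16 and 14 by library), had a median of 0.158%, 0.0557% and 0.149% and reached 21.5% (Elane), 0.740% (G0s2) and 2.42% (Ifitm6). For S100a6 the ratio was 13.7%, 1.59% and 1.24% and for S100a11 it was 9.53%, 5.17% and 4.73%, higher than for S100a8 and S100a9 in each library.

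S100a6, S100a10 and S100a11 gave many more UMIs in deeper cells, and S100a8 and S100a9 changed little. B-like cells were split into 5 bins by their RNA UMIs, and the deepest bin had 12.3, 13.1 and 12.9 times the mean UMIs of the shallowest. S100a10 rose from 0.0515 to 5.37 UMIs per cell in library 1, from 0.135 to 4.29 in library 2 and from 0.0976 to 2.81 in library 3, 104-fold, 31.8-fold and 28.8-fold. S100a8 went from 0.830 to 0.656 UMIs per cell in library 1, from 0.06 to 0.102 in library 2 and from 0.0976 to 0.115 in library 3. Over B-like and T-like cells and the 3 libraries, the ratio of the deepest to the shallowest bin was 0.588 to 1.70 for S100a8 and S100a9. For S100a10 and S100a11 it was 18.1 to 104. S100a4 in B-like cells rose 2.59-fold, 9.88-fold and 2.03-fold, on 5 to 16 UMIs in these end bins, so it did not share the contrast in libraries 1 and 3. Some end bins of S100a8 and S100a9 were as small. The ratio of 0.588 rests on 8 S100a8 UMIs in the shallowest T-like bin of library 2, and that of 1.70 on 11 in the deepest B-like bin of library 2.

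**Figure D2:**
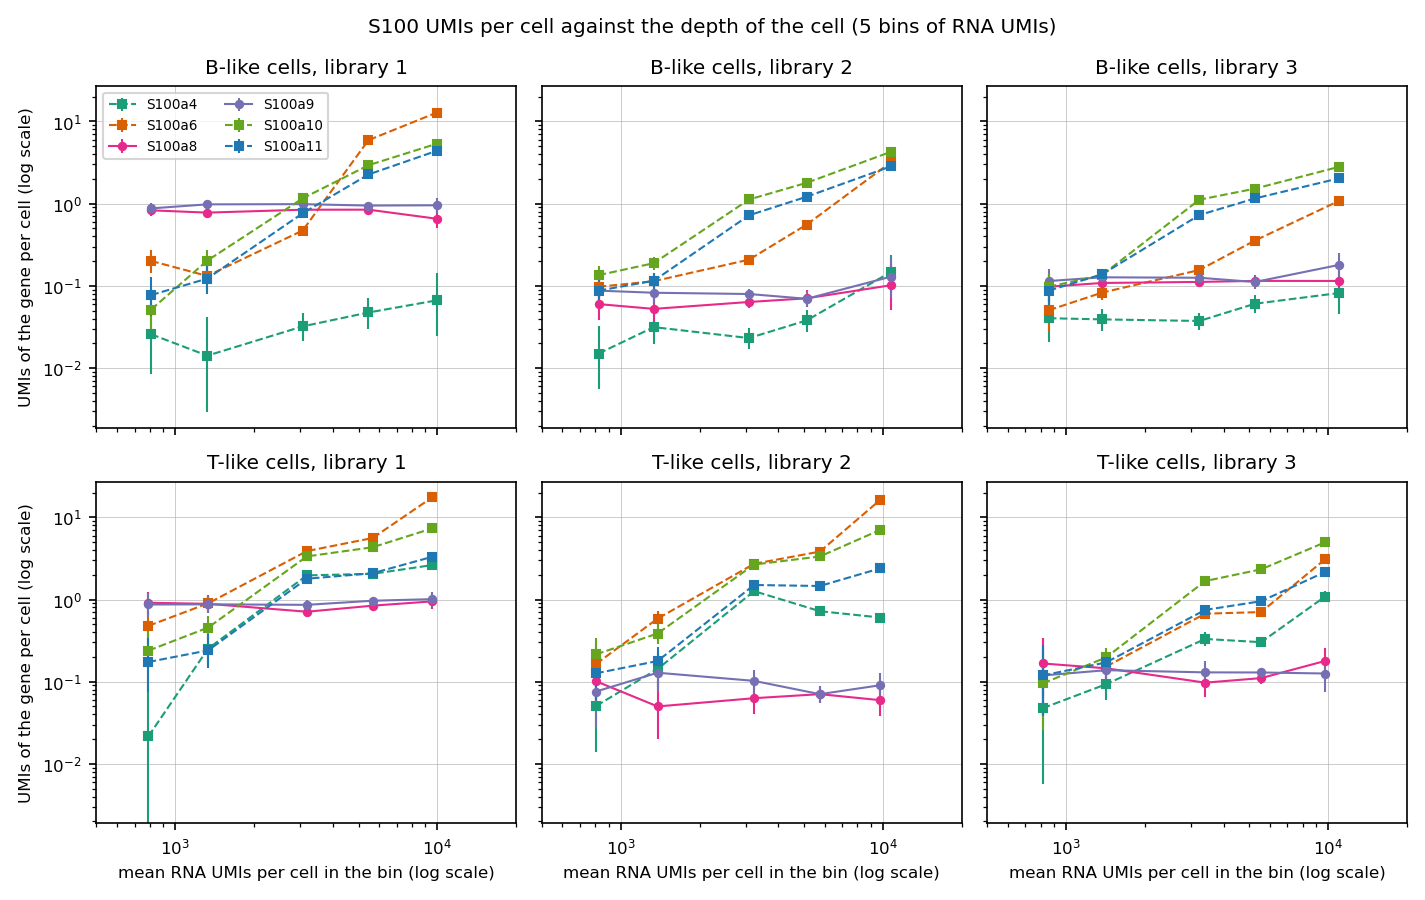
UMIs per cell of each S100 gene (log scale) against the mean RNA UMIs of the cells (log scale) in 5 bins, for B-like (top) and T-like cells (bottom) of each library, with exact Poisson 95% intervals; bins of 0 UMIs are not drawn. S100a8 and S100a9 (solid lines) change by 0.588-fold to 1.70-fold over a depth range of 11.9-fold to 13.1-fold, while S100a6, S100a10 and S100a11 (dashed) rise with depth. S100a4 (dashed) rises 2.03-fold to 9.88-fold in B-like cells, on few UMIs.

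The same contrast was seen over the 12 B-like, T-like and NK-like clusters that had at least 20 cells in each library. Between the lowest and the highest cluster of a library, UMIs per cell of S100a8 differed by 1.34-fold, 2.86-fold and 1.97-fold and of S100a9 by 1.58-fold, 2.90-fold and 1.87-fold. S100a6 differed by 182-fold, 142-fold and 41.7-fold, S100a10 by 35.5-fold, 44.1-fold and 29.9-fold, and S100a11 by 53.5-fold, 31.6-fold and 13.8-fold. The B-like cluster with interferon genes, with 26 cells in library 2 and 35 in library 3, was not among them. It had no UMI of S100a8 or S100a9 in library 2, and including it in library 3 gave 1.98-fold and 2.88-fold. As UMIs per cell of S100a8 and S100a9 differed so little, their CPM was highest in the clusters of low UMI count, for example 693, 65.0 and 107 CPM of S100a8 in T-like cells of low UMI count. A CPM difference of these 2 genes between lymphocyte subsets thus moved with the depth of the cells.

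The counts of S100a8 and S100a9 also had a similar proportion in neutrophil-like, B-like and T-like cells. S100a8 made up 46.6% (46.5 to 46.8), 46.0% (45.5 to 46.5) and 47.5% (47.1 to 48.0) of the UMIs of both genes in neutrophil-like cells. In B-like cells it was 46.2% (44.5 to 47.9), 44.7% (40.8 to 48.7) and 47.2% (44.2 to 50.3), and in T-like cells 47.0% (44.6 to 49.3), 44.2% (38.5 to 49.9) and 47.6% (43.5 to 51.7). In the erythroid-like cells of library 1 it was 47.7% (lower bound 45.4), but 2 of the 411 cells, both marked by Scrublet, held 57.4% of the UMIs of both genes. Without them, a choice made after the values were seen, it was 46.6% (43.0 to 50.3). All these intervals overlap that of neutrophil-like cells of the same library. The proportion was not fixed in library 1, where the 2 neutrophil-like clusters did not overlap. It was 44.6% (44.3 to 44.9) with Cxcr2 and 47.1% (46.9 to 47.3) with granule genes. Barcodes under 300 genes of library 1 were at 43.2% (40.3 to 46.2), below the interval of neutrophil-like cells. Of B-like cells, 17.5%, 87.3% and 80.1% had no UMI of either gene, and of T-like cells 18.8%, 86.5% and 79.1%. Only 1 B-like cell and no T-like cell had 10 or more.

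After each cell was thinned to 1000 UMIs, 23.1% of follicular B-like cells of library 1 had an S100a8 UMI, against 16.7% of erythroid-like cells, which should lack the gene. Before thinning the shares were 55.5% and 57.9%, at medians of 3232 and 5280 UMIs. Thinning left out 5 and 45 cells. Naive CD8 T-like cells were at 10.2%, memory CD8 T-like at 14.2% and effector memory T-like at 20.5%. In library 3 follicular B-like cells were at 2.73% against 1.96% (0.0496 to 10.4) of 51 erythroid-like cells. In library 1 the intervals of these 4 lymphocyte clusters each overlapped that of erythroid-like cells, whose upper bound was 20.9%. Overlap does not show that the shares are equal. As UMIs per cell of S100a8 changed little with depth, thinning also lowers the share more in deeper cells. The part of free RNA in these levels was not tested, since empty droplets were not analysed here.

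**Figure D3:**
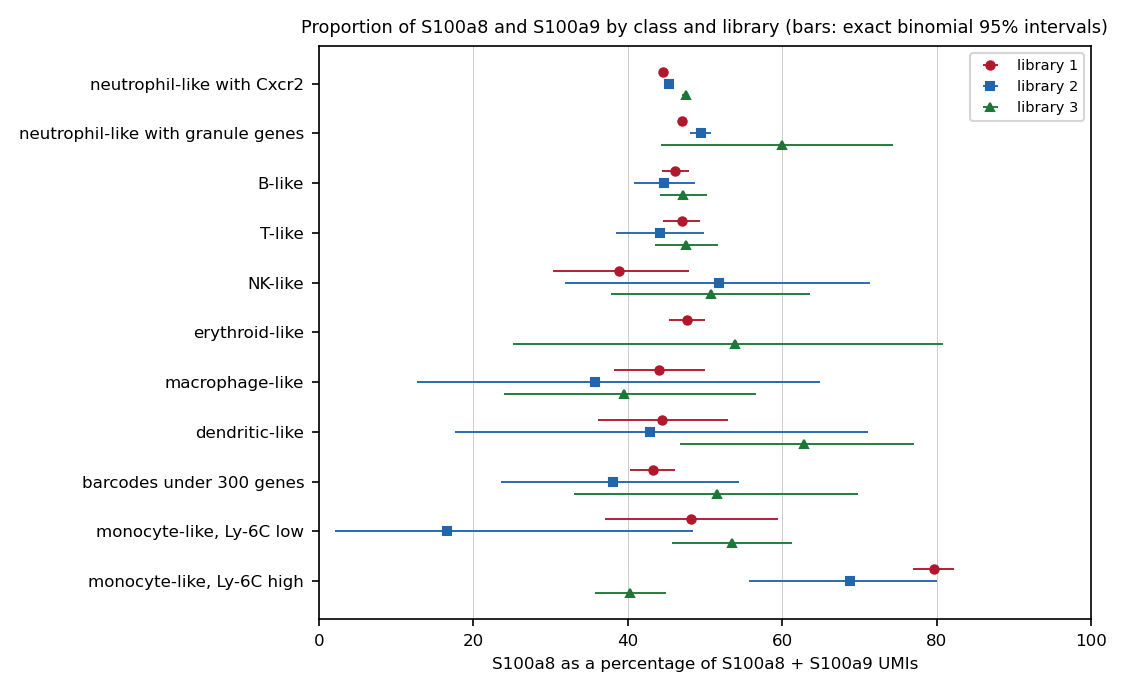
S100a8 as a percentage of the UMIs of S100a8 and S100a9 in each class and library, with exact binomial 95% intervals; groups under 10 UMIs of both are left out. B-like and T-like cells lie near neutrophil-like cells of the Cxcr2 cluster, groups of few UMIs have wide intervals, and monocyte-like cells of high Ly-6C antibody reach 79.7% in library 1 and 68.9% in library 2 but 40.3% in library 3.

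Monocyte-like cells of library 1 differed more. Their S100a8 was at 667, 40.9 and 210 CPM and their S100a9 at 225, 31.3 and 263 CPM, and S100a8 made up 74.7% (72.0 to 77.3), 56.6% (45.3 to 67.5) and 44.4% (40.5 to 48.3) of both. In cells of high Ly-6C antibody (600 counts or more, the classical monocytes recruited in inflammation) the share was 79.7%, 68.9% and 40.3%. These values rest on few cells: 10 of 529 monocyte-like cells (7, 1 and 2 by library) had 10 or more UMIs of both genes and held 919 of the class's 1133 S100a8 UMIs and 480 of its 663 S100a9 UMIs. The 7 cells of library 1 had 639 UMIs of S100a8 and 139 of S100a9, a share of 82.1% (79.3 to 84.8) that lies far above that of neutrophil-like cells. The 2 cells of library 3 had 257 and 332 UMIs, a share of 43.6% (39.6 to 47.7). Without the 10 cells, a choice made after the values were seen, the share was 55.3%, 47.1% (32.9 to 61.5) and 52.9% (38.5 to 67.1). The remaining share in library 1, with a lower bound of 49.4%, still lay above that of its neutrophil-like cells. Monocytes gated by antibody alone had S100a8 at 32307, 3610 and 34.2 CPM and S100a9 at 35064, 3688 and 36.3 CPM. Of the gated cells, 21 of 143 in library 1, 3 of 125 in library 2 and 1 of 160 in library 3 lay in neutrophil-like clusters, and those of libraries 1 and 2 held 38845 of 39457 and 2947 of 2993 S100a8 UMIs. The 113, 116 and 138 gated cells in the monocyte-like cluster had S100a8 at 706, 58.9 and 23.7 CPM.

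S100a6 and S100a11 are also neutrophil genes, so the part of their lymphocyte level that would come with S100a8 and S100a9 in the proportion of neutrophil-like cells was computed. In memory CD8 T-like cells it was 0.376%, 0.0708% and 0.626% of S100a6 and 1.55%, 0.330% and 1.01% of S100a11. In naive CD8 T-like cells, where S100a6 was low, it was 35.3%, 4.24% and 11.7% of S100a6. In follicular B-like cells it was 12.2%, 3.45% and 6.27% of S100a6 and 3.06%, 0.723% and 1.37% of S100a11. For S100a4 and S100a10 it was at most 0.649% in any B-like, T-like or NK-like subset. In the clusters of low UMI count of library 1 it was larger, at 57.0% of S100a6 and 39.6% of S100a11 in T-like cells, on 2 UMIs of each gene, and 17.1% and 20.2% in follicular B-like cells. The part was thus small for all 4 levels in memory CD8 T-like cells, and larger for S100a6 in naive cells and for S100a6 and S100a11 in cells of low UMI count.

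Among T-like cells, S100a4, S100a6, S100a10 and S100a11 were higher in memory, effector memory and regulatory clusters than in naive clusters of the same library. The range over these clusters was wider for S100a4 and S100a6 than for S100a10 and S100a11, and memory CD8 T-like cells had a different place in the order for S100a4 than for S100a6 in libraries 1 and 2. None of the S100 genes took part in making the clusters.

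S100a4, known from motile and memory cells, was at 9.96, 6.33 and 6.81 CPM in naive CD8 T-like and 9.84, 4.77 and 6.07 CPM in naive CD4 T-like cells of libraries 1, 2 and 3. It was at 95.6, 48.6 and 44.8 CPM in memory CD8 T-like cells, 785, 526 and 320 CPM in regulatory T-like cells and 909, 411 and 320 CPM in effector memory T-like cells. The naive clusters did not differ beyond their intervals, and neither did regulatory and effector memory cells in library 3. Memory over naive CD8 T-like cells gave 9.60-fold (4.56 to 24.3), 7.68-fold (4.32 to 15.1) and 6.57-fold (4.11 to 10.7). Thus the memory CD8 cluster, led by Gzmm, Ly6c2 and Ccl5, had far less S100a4 than the effector memory cluster, led by Gzmk, Ccl4 and Ccl5.

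S100a6, a partner of annexins and of the ubiquitin ligase component CACYBP, was at 15.7, 32.7 and 20.0 CPM in naive CD8 T-like and 29.5, 24.5 and 14.3 CPM in naive CD4 T-like cells. In memory CD8 T-like cells it was at 1406, 1639 and 422 CPM, 89.8-fold (50.1 to 180), 50.1-fold (39.1 to 65.4) and 21.1-fold (16.8 to 26.8) the level of naive CD8 T-like cells. It was at 1072, 1033 and 552 CPM in regulatory and 2040, 1090 and 632 CPM in effector memory T-like cells. So memory CD8 T-like cells were rich in S100a6 and poor in S100a4, while the regulatory and effector memory T-like clusters were rich in both. The regulatory T-like cluster was led by Ikzf2, Izumo1r and Maf, with Foxp3 further down. Whether it also holds other CD4 T cells was not tested, so its values are those of the cluster as a whole. Library 3 had the lowest S100a6 in all 3 of these clusters.

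S100a10, which carries annexin A2 to the membrane, had a high base in naive cells, with 428, 420 and 380 CPM in naive CD8 and 276, 286 and 259 CPM in naive CD4 T-like cells. It was at 645, 702 and 556 CPM in memory CD8, 1047, 912 and 770 CPM in regulatory and 1294, 965 and 918 CPM in effector memory T-like cells. Memory over naive CD8 T-like cells was 1.51-fold (1.32 to 1.72), 1.67-fold (1.55 to 1.81) and 1.47-fold (1.34 to 1.61). S100a11, of membrane repair, was at 162, 168 and 155 CPM in naive CD8 T-like cells, 237, 234 and 219 CPM in memory CD8, 642, 601 and 396 CPM in regulatory and 711, 442 and 397 CPM in effector memory T-like cells. Regulatory over naive CD4 T-like cells gave 6.15-fold (4.61 to 8.35), 6.25-fold (5.23 to 7.51) and 4.52-fold (3.94 to 5.20) for S100a11.

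Shares of cells with a UMI were compared after thinning to 1000 UMIs, with libraries summed. For S100a6, 61.8% of memory CD8 T-like cells and 2.50% of naive CD8 T-like cells had a UMI, against 2.30% of erythroid-like cells (88.8%, 9.89% and 10.4% before thinning, at medians of 7725, 5829 and 5258 UMIs). For S100a4, 25.1% of effector memory, 19.5% of regulatory and 5.67% of memory CD8 T-like cells had one, against 0.775% of naive CD8 T-like and 0.460% of erythroid-like cells. Naive T-like cells thus lay close to the share of a class that should lack both genes, and memory cells far above it. S100a10 was found in 30.6% of naive CD8 and 46.3% of memory CD8 T-like cells against 2.30% of erythroid-like cells.

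Antibodies split the effector memory T-like and regulatory T-like clusters further. In effector memory T-like cells, S100a4 was at 1317, 598 and 422 CPM in those with CD4 antibody (95, 74 and 55 cells) and 851, 296 and 386 CPM in those with CD8a antibody (151, 97 and 24 cells). S100a6 had the opposite order, at 1515, 748 and 569 CPM with CD4 and 2584, 1501 and 960 CPM with CD8a. The CD4 to CD8a ratio was 1.55 (1.37 to 1.75), 2.02 (1.59 to 2.56) and 1.09 (0.764 to 1.59) for S100a4 and 0.586 (0.531 to 0.645), 0.498 (0.425 to 0.582) and 0.593 (0.459 to 0.768) for S100a6. The order of S100a6 therefore held beyond the intervals in each library, and that of S100a4 in libraries 1 and 2. In regulatory T-like cells, those of low CD25 antibody (the alpha chain of the interleukin-2 receptor) had S100a6 at 1124, 1055 and 689 CPM and those of high CD25 801, 408 and 170 CPM. S100a4 was at 854, 524 and 470 CPM against 847, 236 and 73.8 CPM, a ratio of 1.01 (0.783 to 1.32) in library 1, 2.22 (1.63 to 3.09) in library 2 and 6.37 (4.27 to 9.90) in library 3. The levels of the regulatory T-like cluster therefore do not stand for its cells of high CD25, which had less S100a6 in each library and less S100a4 in libraries 2 and 3.

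A comparison by protein used CD44, the hyaluronan receptor that rises on T cells after activation and stays high on memory cells. T cells were gated by antibody alone as CD4 (2386 kept cells) or CD8 (2270), of which 98.6% in each gate lay in T-like clusters, and divided into quartiles of the CD44 count within each library. A gene was called where the highest and lowest quartile differed at least 2-fold in the same direction in every library. In the CD4 gate 4 of the 6 members were called higher, S100a4, S100a6, S100a10 and S100a11, where 3.46% of 6040 genes were called higher and 0.414% lower. In the CD8 gate S100a6 was called higher, 1 of 6, where 1.49% of 5454 genes were called higher and 0.312% lower (81 and 17 genes, or 73 and 45 after thinning to 1000 UMIs). S100a8 and S100a9 were called in neither gate.

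In the CD4 gate, S100a6 was at 138, 30.3 and 44.5 CPM in the lowest and 1349, 1386 and 687 CPM in the highest CD44 quartile of libraries 1, 2 and 3, log2 ratios of 3.28, 5.49 and 3.94. S100a4 was at 103, 9.68 and 36.8 CPM and 912, 818 and 328 CPM, log2 ratios of 3.13, 6.31 and 3.14. S100a10 had log2 ratios of 1.73, 1.70 and 1.61, and S100a11 of 1.65, 2.58 and 2.04, beside a median of 0.17 over all genes tested. S100a8 was at 161, 18.2 and 22.2 CPM in the lowest and 231, 10.8 and 16.3 CPM in the highest quartile, log2 ratios of 0.52, -0.72 and -0.44 that differ in sign between libraries. S100a9 had log2 ratios of 0.04, 0.41 and -0.18.

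S100a6 did not change over the quartiles of library 3 as it did over those of library 1. In library 3, S100a6 was at 44.5, 15.9, 29.0 and 687 CPM from the lowest to the highest CD44 quartile of the CD4 gate, so that the level was high in 1 quartile. In library 1 it was at 138, 424, 1246 and 1349 CPM and rose over 3 of them. The median CD44 count of the second quartile was 73, 56 and 43 in libraries 1, 2 and 3. The share of memory cells in each quartile was not tested.

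In the CD8 gate, S100a6 was at 223, 19.7 and 11.1 CPM in the lowest and 1656, 1848 and 281 CPM in the highest quartile, log2 ratios of 2.89, 6.52 and 4.61. S100a10 was at 435, 409 and 383 CPM and 705, 787 and 540 CPM, log2 ratios of 0.69, 0.94 and 0.50. S100a11 had log2 ratios of 0.35, 0.57 and 0.35. S100a8 had -0.06, -0.73 and -0.11. S100a9 was at 189 (156 to 225), 11.4 and 28.2 CPM in the lowest and 126 (104 to 152), 6.24 and 19.9 CPM in the highest quartile, log2 ratios of -0.58, -0.86 and -0.50. The intervals of S100a9 did not overlap in library 1. Its UMIs per cell there were 1.03 and 0.983, at median depths of 5492 and 7822 UMIs. S100a4 in libraries 2 and 3 had log2 ratios of 3.45 and 3.64, and in library 1 of 0.04. In library 1 its level was 116, 577, 197 and 120 CPM from the lowest to the highest quartile, with a peak at CD44 counts of 44 to 163. S100a6 had no such peak there, at 223, 1603, 1512 and 1656 CPM. Between fixed CD44 counts (150 or more against under 30, chosen after the values were seen) S100a4 was called as well, at 154, 76.6 and 153 CPM against 52.4, 8.34 and 4.88 CPM. It was also called without library 1, and neither S100a4 nor S100a6 was called in a median split of CD44 in the CD8 gate, where the smallest log2 ratio of S100a6 was 0.88.

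**Figure D4:**
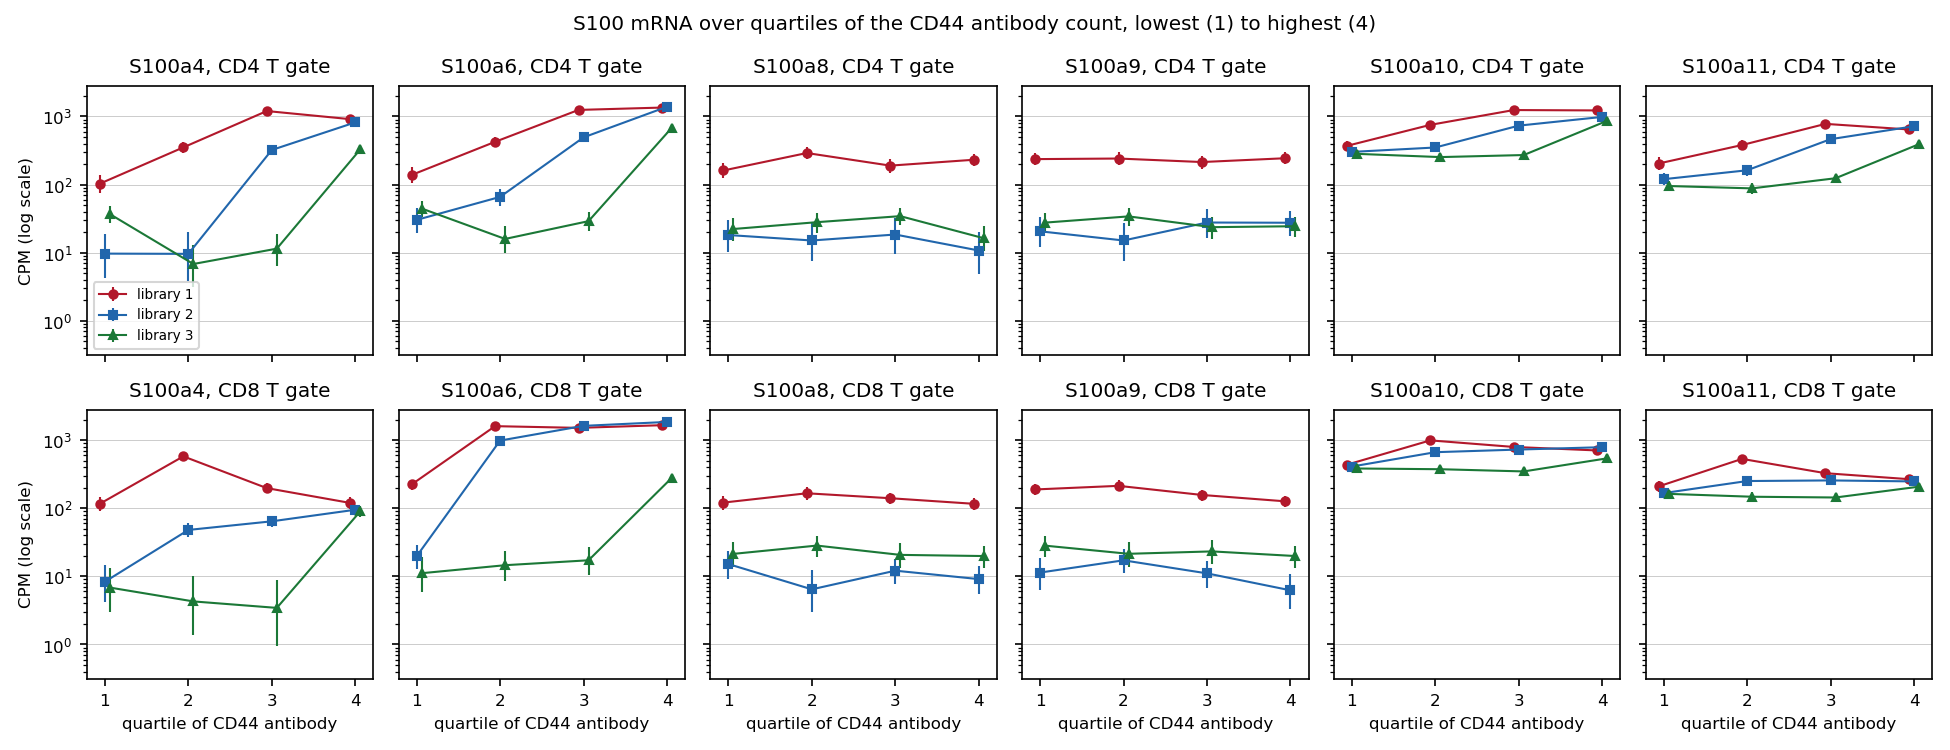
Levels of the 6 S100 genes (CPM, log scale) over quartiles of the CD44 antibody count in CD4 (top) and CD8 T cells (bottom) gated by antibody, with 1 line per library and exact Poisson 95% intervals. S100a4, S100a6, S100a10 and S100a11 are higher at the highest than at the lowest CD44 in the CD4 gate of each library, S100a8 and S100a9 change less than S100a6, with S100a9 lower at the highest CD44 in the CD8 gate of each library, and S100a4 in CD8 T cells of library 1 peaks in the second quartile at 577 CPM.

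Lists of related genes gave the frame for these ratios. Of 13 genes of memory T cells, 12 were tested in the CD4 gate and 9 were called higher, with a median log2 ratio of 2.55, and in the CD8 gate 8 of 12 with a median of 2.69. These counts and medians include Cd44, called in both gates. It encodes the protein that set the quartiles, so its call is not independent of the split. Of the genes of naive T cells, Ccr7, Lef1, Igfbp4 and Satb1 were called lower in the CD4 gate, and Lef1 and Igfbp4 in the CD8 gate. Of 12 binding partners and targets of S100 proteins, 11 were tested in each gate and the same 2 were called higher in both, Anxa2 and Ahnak, the partners of S100A10. Anxa2 was at 10.1, 9.68 and 9.21 CPM in the lowest and 127, 123 and 98.5 CPM in the highest CD44 quartile of the CD4 gate, and Ahnak at 101, 54.5 and 43.7 CPM against 859, 882 and 651 CPM. Cacybp, Myh9 and Tpm3, targets of S100A6 and S100A4, were not called in either gate, and their log2 ratios lay between -0.24 and 0.35. They do not stand for the list, whose median log2 ratio was 0.69 in the CD4 gate and 0.45 in the CD8 gate. The medians over all genes tested were 0.17 and -0.01. Of 6 receptors named for S100A8 and S100A9, 2 were tested, Bsg and Cd69, and none was called. Of 6 subunits of the NADPH oxidase, which calprotectin helps to assemble, 4 were tested in the CD4 gate and 1, Cybb, was called higher. In the CD8 gate 3 were tested and none was called. No list member of the 23 neutrophil genes passed the minimum of 20 CPM in the CD4 gate, and 1 did in the CD8 gate, G0s2, which was called higher and which T-like cells also carry. The 6 erythroid genes gave no call, with 4 tested in each gate, but moved with CD44 in single libraries. In library 3 all 4 were higher at the highest CD44 of the CD4 gate, with log2 ratios of 4.81 to 5.02, for example Hbb-bs, a beta globin, at 2249 against 72.1 CPM. In library 2 all 4 were higher at the highest CD44 of the CD8 gate, with log2 ratios of 2.70 to 4.10. In the other libraries of each gate they lay between -0.60 and 0.93. Their part in the S100 ratios of these libraries was not tested.

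In NK-like cells S100a10 was the highest of the 4 in each library, at 971, 990 and 1000 CPM, and S100a6 was at 666, 778 and 656 CPM. S100a11 was at 390, 370 and 366 CPM and S100a4 at 111, 160 and 81.9 CPM. The 3 libraries were close in S100a10 and S100a11, unlike those of memory T-like cells in S100a6. NK cells lose CD27 and gain CD11b as they mature. S100a6 was at 397, 600 and 397 CPM in CD27+ CD11b- and 1071, 843 and 888 CPM in CD27- CD11b+ NK-like cells (19, 51 and 61 against 20, 29 and 112 cells), a ratio of 2.69 (1.80 to 4.09), 1.41 (1.04 to 1.89) and 2.23 (1.79 to 2.81). S100a10 was at 566, 874 and 835 CPM against 1417, 954 and 1164 CPM, with ratios of 2.50 (1.78 to 3.55), 1.09 (0.833 to 1.42) and 1.39 (1.18 to 1.65). S100a4 differed beyond its interval in library 3 alone, and S100a11 in none.

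Naive B-like cells carried S100a10 and S100a11 and little of S100a4. In follicular B-like cells S100a10 was at 337, 348 and 345 CPM and S100a11 at 237, 233 and 233 CPM, close over the libraries. S100a6 was at 85.5, 73.3 and 60.2 CPM and S100a4 at 7.44, 7.41 and 10.8 CPM. Marginal zone B-like cells had less S100a10, at 253, 284 and 246 CPM, with ratios of 0.750 (0.606 to 0.920), 0.816 (0.749 to 0.888) and 0.714 (0.664 to 0.767) to follicular B-like cells. Their S100a6 was at 1.73 (1.28 to 2.29), 1.84 (1.60 to 2.11) and 1.11 times (0.953 to 1.28) the follicular level, so that library 3 did not differ beyond its interval. Plasma-like cells, which give most of their RNA to immunoglobulin, had S100a10 at 73.6, 93.4 and 142 CPM and S100a11 at 47.5, 59.7 and 76.3 CPM.

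S100a6 differed most between libraries in the B1-like cluster, marked by Bhlhe41 and Zbtb32, at 1970, 227 and 261 CPM in 320, 407 and 52 cells. S100a10 (772, 555 and 542 CPM) and S100a11 (577, 308 and 291 CPM) differed less, and S100a4 was low at 15.2, 10.7 and 6.53 CPM. Of the other B1 markers, Plscr1 (115, 47.2 and 75.1 CPM) and Ahr (64.1, 48.2 and 118 CPM) were well above follicular B-like cells. Cd5 was low, at 3.92, 8.11 and 16.3 CPM on 8, 16 and 5 UMIs, against 2.38, 2.63 and 4.29 CPM in follicular B-like cells. The cluster was a mixture of different cells by library, which was seen after its values. In library 1, 236 of the 320 cells had 10 or more UMIs of Iglc1, a lambda light chain constant gene, against 29 of 407 and 11 of 52 in libraries 2 and 3. Those 236 cells had S100a6 at 2297 CPM (2224 to 2371) and the other 84 at 679 CPM (602 to 764), while S100a10 was at 796 and 679 CPM. In library 2, 142 cells had a UMI of Itgax or Tbx21, the genes of CD11c and T-bet that mark age-associated B cells, and their S100a6 was at 30.8 CPM (19.1 to 47.1). The 243 cells of library 2 without them and with under 10 Iglc1 UMIs had S100a6 at 320 CPM (288 to 354). S100a10 was at 573 and 514 CPM and S100a11 at 295 and 313 CPM in the same cells. The 29 cells of library 2 with 10 or more Iglc1 UMIs had S100a6 at 339 CPM (264 to 428), near the 320 CPM of those 243 cells. Cells of library 1 under 10 Iglc1 UMIs and without Itgax or Tbx21 were at 761 CPM (674 to 857). All 378 cells of library 2 under 10 Iglc1 UMIs, those with Itgax or Tbx21 included, were at 214 CPM (193 to 237). Against all cells of low Iglc1, S100a6 was thus higher at high Iglc1 in libraries 1 and 2. Against those without Itgax or Tbx21 it was higher in library 1 but not in library 2. Cells with Itgax or Tbx21 were not taken out of the high Iglc1 group. In library 3, 11 cells of high Iglc1 were at 12.6 CPM, on 1 UMI, against 348 CPM in 41 of low Iglc1. Library 1 was above library 2 at high and at low Iglc1. So S100a6 varied widely within the cluster while S100a10 varied little.

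**Figure D5:**
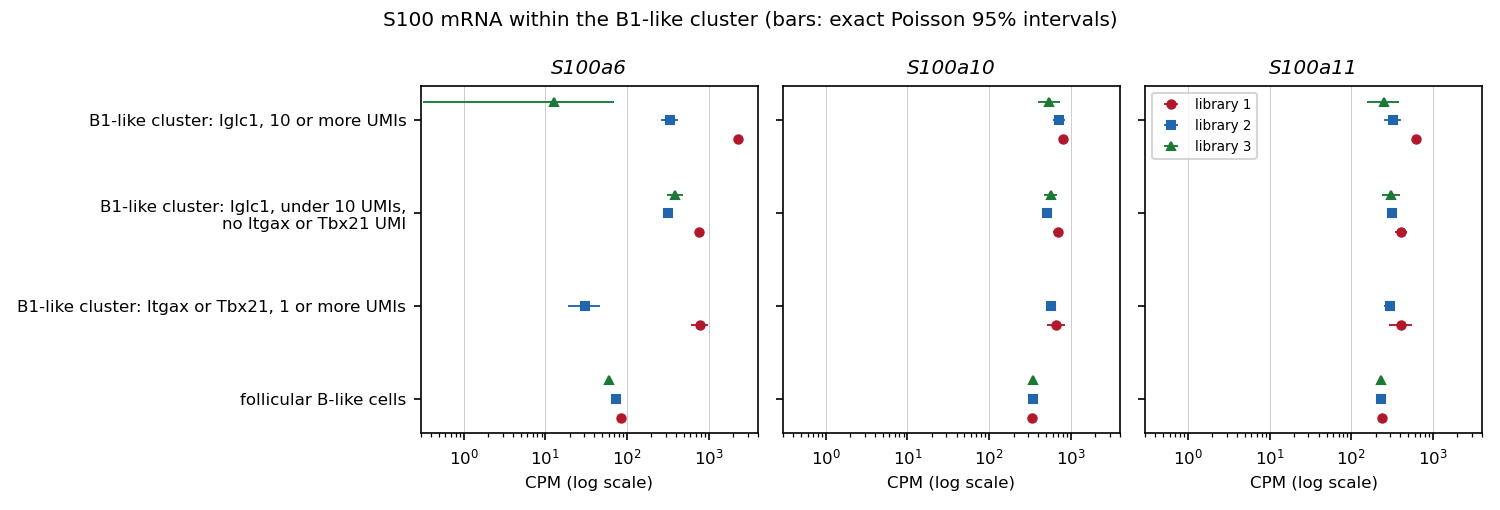
Levels of S100a6, S100a10 and S100a11 (CPM, log scale) in follicular B-like cells and in B1-like cells split by UMIs of Iglc1 and of Itgax or Tbx21 (a cell can be in both the Iglc1 and the Itgax or Tbx21 group), with 1 point per library and exact Poisson 95% intervals. S100a6 spans from 30.8 CPM in Itgax or Tbx21 cells of library 2 to 2297 CPM in Iglc1 cells of library 1 (the Iglc1 point of library 3, at 12.6 CPM, rests on 1 UMI in 11 cells), while S100a10 lies between 514 and 796 CPM in all B1-like points.

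In monocyte-like cells S100a4 was at 2059, 2195 and 1550 CPM, its highest level of any cluster, and S100a6 at 2798, 2526 and 2043 CPM. All 4 members were higher at high than at low Ly-6C antibody in each library. For S100a4 the values were 2362, 2651 and 2158 CPM against 1324, 1356 and 535 CPM, ratios of 1.78 (1.58 to 2.02), 1.96 (1.77 to 2.17) and 4.03 (3.51 to 4.65). For S100a10 they were 959, 728 and 618 CPM against 290, 240 and 117 CPM, ratios of 3.30 (2.57 to 4.31), 3.04 (2.41 to 3.85) and 5.27 (3.94 to 7.19). Library 3 had the lowest values of both genes in the Ly-6C low cells.

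In dendritic-like cells S100a4 was at 1236, 1292 and 965 CPM and S100a11 at 1015, 1100 and 917 CPM. The split by antibody was wide for S100a4: cells with CD11b and without CD8a had 1790, 2143 and 1384 CPM and cells with CD8a and without CD11b, the cross-presenting type, 177, 136 and 133 CPM. The ratios were 10.1 (6.53 to 16.5), 15.8 (10.9 to 23.7) and 10.4 (7.71 to 14.4). S100a11 differed little, with ratios of 1.60 (1.26 to 2.05), 1.40 (1.17 to 1.68) and 1.2 (1.03 to 1.38). Macrophage-like cells had S100a10 at 161, 165 and 123 CPM and S100a4 at 76.3, 35.8 and 89.1 CPM. Basophil-like cells had S100a10 at 1521, 1107 and 1131 CPM and S100a11 at 1102, 593 and 787 CPM. The first erythroid-like cluster, read in library 1, had the least S100a10 outside granule neutrophils, 17.4 CPM.

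Of the 11 other S100 genes, 2 reached 20 CPM in a cluster. S100a13 was highest in NK-like cells (249 CPM, libraries summed) and effector memory T-like cells (243 CPM), the cells that also had the most S100a10 among lymphocytes. S100a1, known from muscle, was at 91.1 CPM in platelet-like cells, on 13 UMIs, and 49.0 CPM in macrophage-like cells. The remaining 9 did not pass 2.10 CPM in any cluster.

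Receptors and partners were placed as follows with libraries summed. Tlr4, the receptor of calprotectin, was highest in macrophage-like cells at 75.3 CPM, and was at 43.5 CPM in neutrophil-like cells with Cxcr2 and 18.1 CPM in monocyte-like cells. Cd36 was at 132 CPM in monocyte-like cells and Ager, the receptor RAGE, did not exceed 8.41 CPM in any named cluster. Anxa1 was at 4298 CPM in neutrophil-like cells with granule genes and 716 CPM in those with Cxcr2. Anxa2 was at 1006 CPM in the Cxcr2 cluster, 616 CPM in monocyte-like cells, 420 CPM in NK-like cells, 120 CPM in memory CD8 T-like cells and 11.1 CPM in naive CD8 T-like cells. Cyba, Cybb, Ncf1, Ncf4 and Rac2 of the NADPH oxidase passed 20 CPM in both neutrophil-like clusters, with Cybb at 104.5 CPM with Cxcr2 and 2297 CPM with granule genes.

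The genes with the most similar pattern were found by Pearson correlation of log2(CPM + 1) over the 25 clusters of at least 50 cells, which share libraries and differ in depth, among 6955 genes. Unnamed clusters 13, 19 and 22 are among the 25, and Scrublet marked 66.9% of the cells of cluster 13. For S100a8 the most similar genes were S100a9 (0.996), Retnlg (0.972) and Lcn2 (0.969), and for S100a9 they were S100a8, Retnlg (0.971) and Lcn2 (0.963). For S100a4 they were Cx3cr1 (0.827), Mcub (0.812) and Ccr2 (0.788), and for S100a6 Anxa2 (0.901), Myo1f (0.862) and Prr13 (0.851). For S100a10 they were Pkp3 (0.915), Rab19 (0.889) and Pnkd (0.887), and for S100a11 Prr13 (0.909), Pglyrp1 (0.895) and Pxn (0.887). Among the members, S100a10 and S100a11 had a correlation of 0.223, and of 0.847 over the 23 clusters left without the neutrophil-like ones. S100a4 and S100a6 went from 0.589 to 0.808, and S100a6 and S100a8 from 0.514 to 0.130. The resemblance of S100a6 to S100a8 thus rested on the neutrophil-like clusters, while the 6 pairs among S100a4, S100a6, S100a10 and S100a11 lay between 0.482 and 0.847 without them. Of these, S100a4 and S100a10 went from 0.510 to 0.482 and S100a6 and S100a11 from 0.843 to 0.779.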

How the data were processed

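The authors deposited 1 matrix of whole-number UMI counts per gene or antibody and barcode. The file header carries Cell Ranger 5.0.1. In the submitters' processing notes the tools are Seurat and Cell Ranger, on mm10. The study's methods describe an aggregation of the 3 libraries. Whether it subsampled reads was not stated in what was read.

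Cells with 300 to 5000 genes and at most 10% mitochondrial UMIs were kept (20161 of 29005, or 69.5%). Counts were scaled to 10000, log-transformed and reduced to 2000 variable genes with all 16 S100 symbols among them kept out, and 20 components, 20 neighbours and Louvain clustering at resolution 0.8 (igraph 0.11.9, scanpy 1.11.5, Python 3.11.15) gave 27 clusters, of which 3 (clusters 13, 19 and 22) stayed unnamed. Doublets were removed only by the gene limit, and Scrublet marked 469 further cells (2.33%). CPM intervals are exact Poisson and shares exact binomial (Clopper-Pearson, scipy 1.17.1). Antibody thresholds, such as 40 counts for CD4 and 100 for CD8a, were set after the antibody counts had been seen. CD44 ratios used genes of at least 20 CPM and 0.5 added counts, and this step was tested on simulated data.

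The members and lists were chosen with earlier results of these data known. Genes named are the 6 members, other S100 genes of at least 20 CPM in a cluster, list members of at least 20 CPM (at most 6 a list) or called, and the 3 genes most like each member among those of at least 50 CPM without immunoglobulin and T cell receptor genes. Iglc1, Itgax, Tbx21, and list members named for a contrast (Ager, Cacybp, Myh9 and Tpm3), were named after their values were seen. Some list members are not reported here. Alternatives were other cell limits, classes, denominators, thinning, clustering, CD44 splits and leaving out each library.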

Additional observations from a re-analysis of the deposited data

Results flagged for a closer look

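Barcodes under 300 genes, which the limits on cells remove, still held S100a8 and S100a9. In the 595 such barcodes of library 1, S100a8 was at 1017 CPM and S100a9 at 1335 CPM. In the 278 of library 2 they were at 71.7 and 116 CPM, and in the 161 of library 3 at 97.5 and 91.4 CPM. Each is above the limit that a count of 0 allows. Per barcode, S100a8 was at 0.827, 0.0576 and 0.0994 UMIs, beside 0.830, 0.06 and 0.0976 UMIs per cell in the shallowest kept B-like cells.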

How the results depend on the processing

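Among the 8 classes compared, which do not include basophil-like cells, the class with the highest level was the same for 18 of 18 pairs of member and library under the 7 other settings for cells and scaling, antibody gates, Scrublet and finer clustering among them. With antibody gates 41 of 138 levels moved over 1.5 times. Memory CD8 T-like, effector memory T-like and NK-like cells were each compared with naive CD8 T-like cells, and regulatory with naive CD4 T-like cells. Comparisons with the same naive cells are not independent. S100a4, S100a6, S100a10 and S100a11 were higher than in naive T-like cells in 48 of 48 comparisons. S100a8 and S100a9 were so in 16 of 24, and in 10 to 11 of 16 when 1 library was left out.

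S100a8 and S100a9 in B-like cells, as a percentage of the neutrophil-like level, were 0.198, 0.0395 and 0.0774 (0.0670 summed). With the antibody gate library 1 gave 0.577 and the sum 0.132. Without cells above the 95th percentile of UMIs they were 0.220, 0.0434 and 0.0857 (0.0743 summed), and against the level over all kept cells 2.12, 3.59 and 5.00 (2.13 summed). Leaving out 1 library gave 0.0583 to 0.0904.

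In the CD4 gate, 209 genes were called higher and 25 lower with CD44 quartiles. A median split gave 81 and 1, a limit of 1.5-fold 433 and 75, a minimum of 5 CPM 453 and 54, and one of 100 CPM 43 and 7. Non-overlapping Poisson intervals gave 138 lower. Leaving out 1 library gave 221 to 341 higher and 28 to 57 lower, the upper ends without library 3. In the CD8 gate the counts were 81 and 17. A median split gave 37 and 4 with 0 members, 1.5-fold 146 and 78, Poisson intervals 143 and 84 with 2 members (S100a6 and S100a10), 5 CPM 169 and 64, and 100 CPM 18 and 1. Fixed CD44 counts, chosen after the data were seen, gave 2 members (S100a4 and S100a6) and 38 lower, and thinning 45 lower. Leaving out 1 library gave 1 to 2 members (2 without library 1), 85 to 139 higher and 22 to 75 lower, the upper ends of the gene counts without library 3. The cause was not tested, except that a changed limit or minimum alters the genes eligible.

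No paired analysis was possible because each group had 1 RNA sample and no suffix was assigned to a group. Low counts limit S100a4 in naive cells and all values of basophil-like and platelet-like cells.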
